A study of Homo sapiens with 29 samples.

Results

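The genes described here are 38 genes of glycolysis and glucose handling, listed by name for their place in the pathway, with earlier results of these data known. They are the glucose transporters SLC2A1 and SLC2A3, the enzymes from hexokinase to lactate dehydrogenase, the lactate carriers SLC16A1 and SLC16A3, the genes that bring pyruvate into mitochondria, and regulators of these steps. All 38 were found among the 35579 genes that had a transcript in the expression table. Of these, 30 had a mean of at least 10 TPM (a unit scaled for transcript length and for the total of the library) over all libraries and were tested. The other 8, SLC2A3, HK2, PFKFB4, ALDOC, PDK1, PDK3, PDK4 and ARRDC4, were below it and are treated separately.

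Glycolysis splits glucose into pyruvate in the cytosol. Hexokinase traps glucose in the cell as glucose 6-phosphate, phosphofructokinase commits it to the pathway, and the steps from GAPDH to pyruvate kinase return ATP. Pyruvate is then reduced to lactate by lactate dehydrogenase and exported, or carried into mitochondria by MPC1 and MPC2 and oxidised by pyruvate dehydrogenase, which the PDK kinases switch off. Many tumour cells make lactate even with oxygen at hand, and growth factor receptors, through PI3K, MYC and HIF1A, are known to raise the transcripts of this pathway.

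RNA was measured in PC9, an EGFR-mutant lung adenocarcinoma line whose growth depends on the receptor EGFR. There were 10 lines: the parental cells (PAR), an AXL knockout made from them with CRISPR-Cas9 (KO), and 8 lines of knockout cells in which AXL was put back. These carried the wild-type receptor (WT), a kinase-dead one (KD), or a receptor with 1 tyrosine changed to phenylalanine (Y634F, Y643F, Y698F, Y726F, Y750F or Y821F). The labels call WT and KD knock-ins, and the study's methods describe lentiviral transduction and sorting of populations on GFP. According to the study, each transduced population still held cells without AXL. Dishes were seeded with 300000 cells and kept for 24 h with 1 μM erlotinib, an inhibitor of the EGFR kinase (E), or with the same drug plus the AXL-activating antibody AF154 at 300 ng/mL (EA). Untreated libraries are named by the labels alone, and the protocols describe the E and EA dishes only, so how untreated dishes were kept is not given in the sources used here. With 1 library per line and treatment there were 10 untreated, 10 E and 9 EA libraries, and an EA library of KO was not analysed here. The lines therefore stood in as replicates of a treatment, although they carry different receptors. With line as a block, a p-value sets the mean change against how much the change within a line varies from line to line.

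The depth of the 29 libraries is unknown because TPM keeps no read number. Between 89091 and 95537 transcripts were above 0 in a library. The defining epithelial genes EPCAM, CDH1, KRT8, KRT18 and KRT19 were present in every library, the lowest value being 60.8 TPM for CDH1. Of the 6 markers of other cell types, CD3E was listed at 0 throughout, PTPRC, VWF and DCN reached at most 1.99 TPM, PECAM1 reached 9.60 TPM and COL1A1 lay between 15.3 and 70.9 TPM. AXL transcripts were at 79.3 to 92.4 TPM in KO and at 217 to 852 TPM in the other lines, so the knockout line had the lowest level but still had the RNA. Mitochondrially encoded genes took 11.4 to 14.4% of TPM untreated, 12.3 to 17.4% with E and 12.9 to 17.4% with EA, and since TPM is a share, what they take is lost to every other gene. The enzymes of glycolysis were abundant, with GAPDH among the 26 highest genes of every library.

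Promoters of HK2, LDHA, PGK1 and TXNIP are given first as examples that hold short motifs known to bind factors that read oxygen, growth signals and glucose. They were picked for holding a motif, and ENO1, LDHB and PGAM1, which also moved with treatment, held none of the motifs searched. RefSeq sequences on GRCh38.p14 covered 35 of the 38 genes (69 start sites, each with 250 bases before the start and 50 after it). SLC16A1, PFKFB2 and SLC2A3 had none. The letters ACGTG, the core to which hypoxia-inducible factors bind, were found on either strand in 26 of these 69 windows (37.7%) and in 21.4% of the 35116 windows of all genes. The E-box CACGTG, bound by MYC and its relatives, reads the same on both strands and contains ACGTG. It was in 9 of the 69 windows (13.04%) and in 7.26% of all windows. A pair of CACGTG-like sixmers 5 bases apart, with up to 1 mismatch in each, is the form of a carbohydrate response element, the site of the glucose-sensing factors. It was in 1 of the 69 windows, that of TXNIP, and in 0.421% of all windows. These are matches of letters and no binding was measured. The first stretch of each gene below ends before the next annotated exon base, and those of HK2 and PGK1 lie within the annotated span of the gene but in no exon. The second LDHA stretch lies past the annotated gene start. Capitals mark ACGTG or its reverse complement CACGT in HK2, LDHA and PGK1 (CACGTG where both overlap) and the paired sixmers of TXNIP.
HK2 (chr2:74834920-74835169, plus strand, 250 to 1 bases before the downstream of its 2 starts): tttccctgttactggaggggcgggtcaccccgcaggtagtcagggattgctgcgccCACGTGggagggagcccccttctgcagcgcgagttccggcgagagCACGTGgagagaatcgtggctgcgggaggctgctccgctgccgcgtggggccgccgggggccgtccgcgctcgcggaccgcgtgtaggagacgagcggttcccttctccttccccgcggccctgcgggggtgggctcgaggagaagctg
LDHA (chr11:18394313-18394387, plus strand, 250 to 176 bases before its first start): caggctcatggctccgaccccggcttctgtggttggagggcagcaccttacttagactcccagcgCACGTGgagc
LDHA (chr11:18394469-18394498, plus strand, 94 to 65 bases before the same start): cgactcaCACGTGggttcccgCACGTccgc
PGK1 (chrX:78103998-78104173, plus strand, 250 to 75 bases before its start): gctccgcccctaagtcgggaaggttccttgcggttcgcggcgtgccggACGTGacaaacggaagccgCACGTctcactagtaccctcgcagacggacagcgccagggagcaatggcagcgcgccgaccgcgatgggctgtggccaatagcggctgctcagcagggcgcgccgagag
TXNIP (chr1:145996601-145996829, minus strand, 250 to 22 bases before its first start): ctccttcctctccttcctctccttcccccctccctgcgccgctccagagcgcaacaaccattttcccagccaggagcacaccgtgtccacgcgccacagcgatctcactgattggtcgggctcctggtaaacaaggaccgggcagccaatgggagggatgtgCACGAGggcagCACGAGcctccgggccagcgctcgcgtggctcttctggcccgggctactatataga

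The first comparison asked what blocking EGFR did to these transcripts in the 10 lines. With E, most glycolytic enzymes fell, from hexokinase to lactate dehydrogenase. Among the 30 genes tested, TXNIP, an inhibitor of glucose uptake, BPGM, of a side branch, and PDK2, a brake on pyruvate oxidation, led the rises. Of the 30 genes tested, 20 fell and 6 rose (limma on log2(TPM + 1), blocked on line, p adjusted by Benjamini-Hochberg over 9085 genes), against 42.6% of all genes tested that fell and 36.4% that rose. The median difference was -0.42 on the log2 scale over the 30 genes and -0.04 over all genes tested. In 15 of the 30, every E value was below every untreated value, which held for 21.6% of all genes, and in 3 (TXNIP, BPGM and PDK2) every E value was above, which held for 14.9%. In bulk RNA, fewer cells with a transcript and less of it per cell cannot be told apart.

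**Figure D1:**
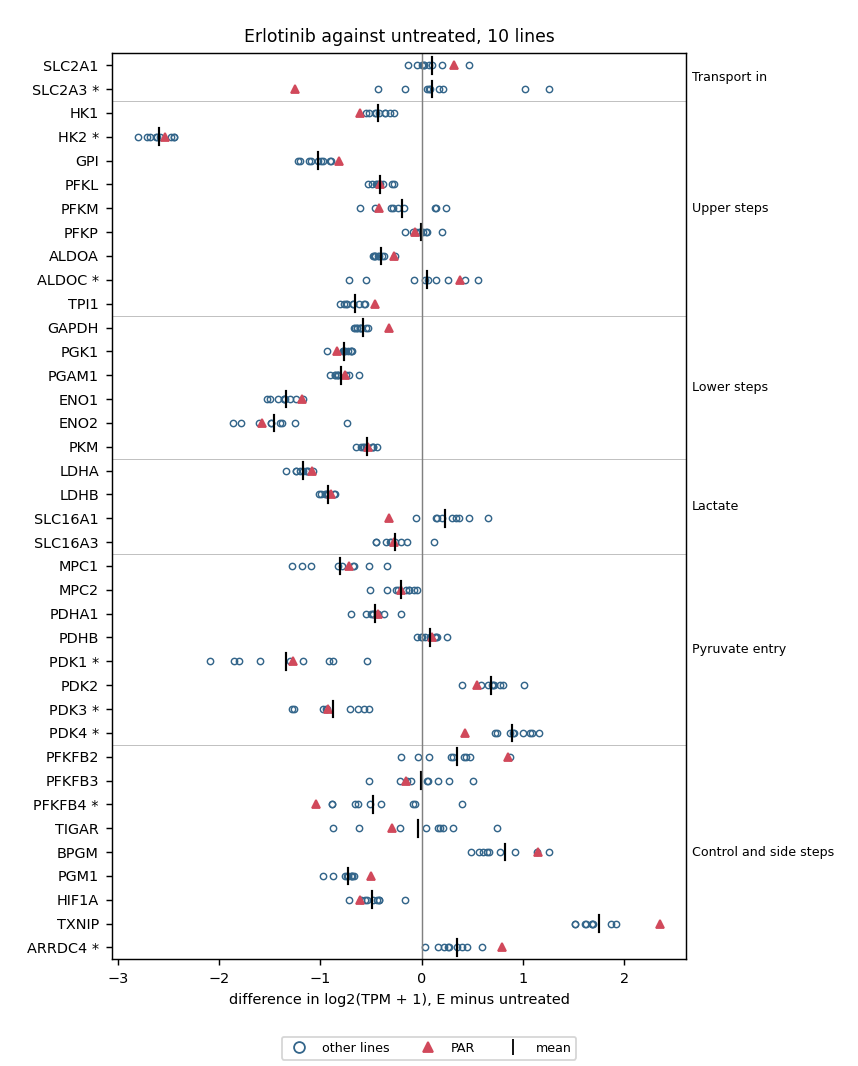
Difference in log2(TPM + 1) between E and untreated for the 38 genes, 1 point per line (10 lines, PAR as a triangle, the mean as a bar), grouped by role, with a star on the 8 genes below the filter. Most enzymes from hexokinase to lactate dehydrogenase lie left of 0 in every line, led by HK2, ENO2, ENO1 and LDHA. PFKM, PFKP and ALDOC lie on both sides of 0. PDK1 lies about as far left as ENO1 on average, with a wide spread. TXNIP, BPGM, PDK2, PDK4 and ARRDC4 lie right of 0 in every line.

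For glucose entry no change passed. SLC2A1 (GLUT1, ENSG00000117394, chromosome 1 from 42925375 to 42959176 in GENCODE 29 on GRCh38) is the main glucose transporter of most tumour lines. It was at 282 TPM in the lowest, 313 in the median and 343 in the highest untreated library, and at 300, 326 and 429 TPM with E. The groups overlapped and the difference was 0.10 on the log2 scale (95% interval -0.0035 to 0.21, limma adjusted p = 0.071), higher in 8 of 10 lines. With medians centred, with quantile normalization, with mitochondrial genes left out and without KD it did pass, with limma adjusted p of 0.036, 0.0019, 0.046 and 0.028. SLC2A3 (GLUT3) was a trace transcript of at most 5.08 TPM, and TPM assigned to its pseudogenes reached 149% of its own in 1 library, so its level is uncertain.

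The upper steps, from hexokinase to triose phosphate isomerase, use ATP and split the sugar. HK2 (ENSG00000159399, chromosome 2 from 74833981 to 74893359), the inducible hexokinase of growing and tumour cells, had the largest fall of all 38 genes. It was at 16.4, 18.0 and 20.4 TPM in the lowest, median and highest untreated library and at 1.67, 2.27 and 2.44 TPM with E. Every line was far below its untreated level, by 8.32-fold as a geometric mean of the TPM ratios. HK2 was below the filter and is named because of its values. With the filter lowered to a mean of 1 TPM it fell by 2.59 ± 0.06 (SE) on the log2 scale (limma adjusted p = 6.9e-13, 10 of 10 lines), where 36.3% of 14111 genes fell and 35.5% rose. HK1, the housekeeping hexokinase, went from a median of 76.0 to 58.6 TPM and fell by 0.43 ± 0.04 on the log2 scale (limma adjusted p = 6.2e-08). The TPM ratio of HK2 to HK1 therefore dropped from 0.146 to 0.272 untreated to 0.0273 to 0.0473 with E, lower in 10 of 10 lines.

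GPI (ENSG00000105220, chromosome 19 from 34359480 to 34402413) turns glucose 6-phosphate into fructose 6-phosphate. It was at 310, 324 and 358 TPM untreated and at 138, 160 and 179 TPM with E, without overlap, a fall of 1.02 ± 0.04 on the log2 scale (limma adjusted p = 7.7e-12). The phosphofructokinase subunits differed among themselves. The liver-type PFKL fell by 0.41 and the muscle-type PFKM by 0.20 (limma adjusted p = 0.031, lower in 7 of 10 lines). PFKP, the platelet-type subunit and by far the most abundant of them at 177 to 269 TPM, showed a difference of -0.01 (95% interval -0.08 to 0.06, limma adjusted p = 0.78). With quantile normalization its difference was 0.0685 and just passed (limma adjusted p = 0.0492). The aldolase ALDOA, which cuts the sugar in 2, fell by 0.40 and stayed at 1203 TPM or more in every library, and TPI1 fell by 0.66, both in 10 of 10 lines. The brain-type aldolase ALDOC, at most 8.11 TPM, had a difference of 0.05 with the lower filter (limma adjusted p = 0.72).

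The lower steps, from GAPDH to pyruvate kinase, all fell. GAPDH went from 4501 to 5899 TPM untreated to 3394 to 4076 TPM with E and fell by 0.58. It is often used as a constant reference, and in these libraries its E values lay wholly below its untreated values. PGK1 and PGAM1, the kinase and mutase that follow, fell by 0.77 and 0.79. For PGAM1 the TPM assigned to its 13 processed pseudogenes came to between 0.539 and 6.02% of its own, so its values carry that uncertainty. For GAPDH, ENO1, PKM, LDHA and LDHB the same share was at most 0.127%.

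ENO1 (ENSG00000074800, chromosome 1 from 8861000 to 8879250), the ubiquitous enolase, was at 1278, 1349 and 1871 TPM in the lowest, median and highest untreated library and at 469, 518 and 825 TPM with E. It fell by 1.34 ± 0.04 (SE) on the log2 scale (limma adjusted p = 2.4e-13, 10 of 10 lines), 2.54-fold as a geometric mean of TPM ratios. ENO2 (ENSG00000111674, chromosome 12 from 6913745 to 6923698), the neuron-type enolase, was far lower, at 18.6, 24.9 and 30.4 TPM untreated and 5.58, 8.19 and 12.4 TPM with E. Its fall of 1.46 ± 0.09 was the largest among the 30 genes tested (limma adjusted p = 1.4e-09), which do not include HK2. ENO2 met the filter only through its untreated values, with means of 24.5 TPM untreated, 8.47 with E and 7.68 with EA. Its place in this ranking therefore depends on the filter. The highest value of each group belonged to PAR for ENO1, and the lowest to PAR for ENO2.

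PKM, pyruvate kinase, fell by 0.54 ± 0.02 on the log2 scale (limma adjusted p = 4.6e-11). Its gene on chromosome 15 (72199029 to 72231822, minus strand) holds a pair of alternative exons of equal length, exon 9 (72203022 to 72203188), which gives the M1 form of adult muscle, and exon 10 (72202454 to 72202620), which gives the M2 form of proliferating cells. Transcripts with exon 10 made up 84.8 to 88.6% of the PKM TPM in every library and transcripts with exon 9 at most 0.973%. The M2 transcripts went from 1476 to 1633 TPM untreated to 1024 to 1190 TPM with E, and the M1 transcripts from 13.2 to 17.8 TPM to 4.05 to 8.72 TPM, so both forms were lower without overlap. These are estimates that divide reads among overlapping transcripts.

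**Figure D2:**
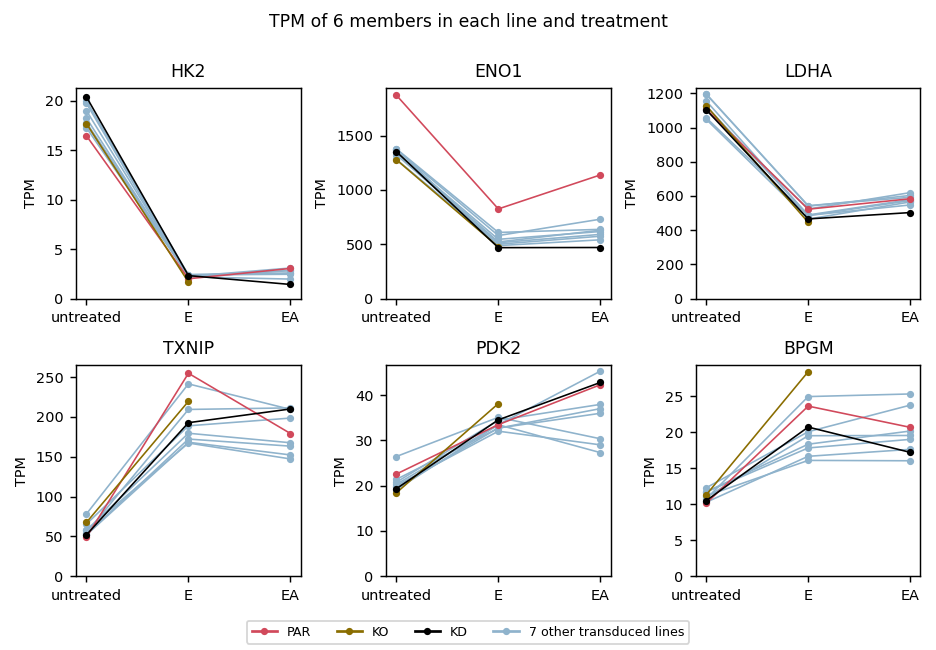
TPM of HK2, ENO1, LDHA, TXNIP, PDK2 and BPGM in every line, untreated, with E and with EA, each line joined across treatments (PAR red, KO olive, KD black, the 7 other transduced lines light blue, axes from 0). HK2, ENO1 and LDHA drop in every line with E, TXNIP, PDK2 and BPGM rise, and PAR stands above the other lines for ENO1 throughout.

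At the lactate end, LDHA (ENSG00000134333, chromosome 11 from 18394388 to 18408425), the subunit favoured for making lactate, was at 1048, 1116 and 1196 TPM in the lowest, median and highest untreated library and at 446, 488 and 544 TPM with E. No E value came near an untreated value. LDHA fell by 1.17 ± 0.03 (SE) on the log2 scale (limma adjusted p = 1.0e-13, 10 of 10 lines). LDHB, the subunit favoured for using lactate, was at 928, 1200 and 1326 TPM untreated and 500, 640 and 662 TPM with E, and fell by 0.93 ± 0.02. The TPM ratio of LDHA to LDHB went from 0.850 to 1.19 untreated to 0.737 to 1.05 with E and was lower in 10 of 10 lines, with PAR highest in both groups. The lactate carriers moved apart. SLC16A3 (MCT4), the exporter of glycolytic cells, fell by 0.26 (limma adjusted p = 0.00013, 9 of 10 lines), and SLC16A1 (MCT1), which carries lactate both ways, rose by 0.23 (limma adjusted p = 0.013, 8 of 10 lines). MCT1 was lower with E in PAR, from 45.2 to 35.9 TPM, and Y643F was the other line with a lower value.

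Pyruvate entry into mitochondria was mixed. MPC1 (ENSG00000060762, chromosome 6 from 166364919 to 166383013), 1 of the 2 subunits of the mitochondrial pyruvate carrier, was at 14.9, 17.6 and 19.5 TPM untreated and 7.14, 9.82 and 12.3 TPM with E, without overlap. It fell by 0.81 ± 0.09 on the log2 scale (limma adjusted p = 8.0e-07), and its partner MPC2 by 0.21. Of pyruvate dehydrogenase E1, the alpha subunit PDHA1 fell by 0.46 and the beta subunit PDHB rose by 0.08, the smallest change that passed (limma adjusted p = 0.042).

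The 4 kinases that switch pyruvate dehydrogenase off did not move together. PDK2 (ENSG00000005882, chromosome 17 from 50094737 to 50112152), the most abundant of them, was at 18.4, 20.2 and 26.5 TPM untreated and 32.1, 33.5 and 38.1 TPM with E. It rose by 0.69 ± 0.05 on the log2 scale in 10 of 10 lines (limma adjusted p = 1.9e-08). PDK1, a target of HIF1A, went from 10.05 to 19.8 TPM untreated to 2.45 to 8.53 TPM with E, and fell by 1.34 with the lower filter (limma adjusted p = 9.6e-07). PDK3 fell by 0.87 in the same fit. PDK4, which is induced in fasting and by FOXO factors, was at most 2.14 TPM in all 29 libraries, but its 10 E values, 0.511 to 1.80 TPM, were all above its 10 untreated values, 0.115 to 0.364 TPM.

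Among the regulators, TXNIP (ENSG00000265972, chromosome 1 from 145992435 to 145996600) had the largest rise. It encodes an arrestin-like protein that lowers glucose uptake and binds thioredoxin, and it is a known target of the glucose-sensing factor pair MLXIP (MondoA) and MLX. It was at 49.0, 56.2 and 78.2 TPM untreated and at 167.2, 191 and 255 TPM with E, without overlap. TXNIP rose by 1.75 ± 0.07 (SE) on the log2 scale (limma adjusted p = 8.5e-12, 10 of 10 lines), with the largest rise, 2.36, in PAR, from the lowest untreated to the highest E value. Its relative ARRDC4, which has an E-box 210 bases before its start, was at most 7.39 TPM and rose by 0.35 with the lower filter (limma adjusted p = 0.0014, 10 of 10 lines). The paired sixmers of the TXNIP promoter each differed from CACGTG at 1 base and began 88 bases before the start.

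BPGM (ENSG00000172331, chromosome 7 from 134646808 to 134679813), which makes 2,3-bisphosphoglycerate in a bypass of PGK1, was at 10.1, 11.1 and 12.3 TPM untreated and 16.1, 19.8 and 28.4 TPM with E, and rose by 0.82 ± 0.08 on the log2 scale (limma adjusted p = 3.0e-07). PGM1, which links glycolysis to glycogen, fell by 0.73, and HIF1A, the oxygen-regulated factor that drives many of these genes, fell by 0.50, both in 10 of 10 lines. Among the enzymes that set fructose 2,6-bisphosphate, PFKFB2 rose by 0.35 (limma adjusted p = 0.0054, 8 of 10 lines), and PFKFB4 fell by 0.48 with the lower filter (limma adjusted p = 0.0045, 9 of 10 lines). PFKFB3 had a difference of -0.01 (95% interval -0.18 to 0.16) and TIGAR, a phosphatase that opposes phosphofructokinase, one of -0.04 (95% interval -0.31 to 0.24), neither past the threshold. ACGTG was found in promoter windows of genes that fell, of genes that rose and of genes that did not pass. Whether it goes with the direction of change was not tested.

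The 17 enzyme genes from hexokinase to lactate dehydrogenase together took 1.44 to 1.59% of all TPM untreated and 0.890 to 1.05% with E, lower in 10 of 10 lines. These sums are dominated by GAPDH, PKM and ALDOA. Other isozyme ratios changed less than that of the hexokinases: ALDOA to ALDOC had a median of 372 untreated and 248 with E, ENO1 to ENO2 of 54.8 and 67.0, SLC2A1 to SLC2A3 of 147 and 138, and SLC16A1 to SLC16A3 of 0.175 and 0.257, all with overlapping groups.

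**Figure D3:**
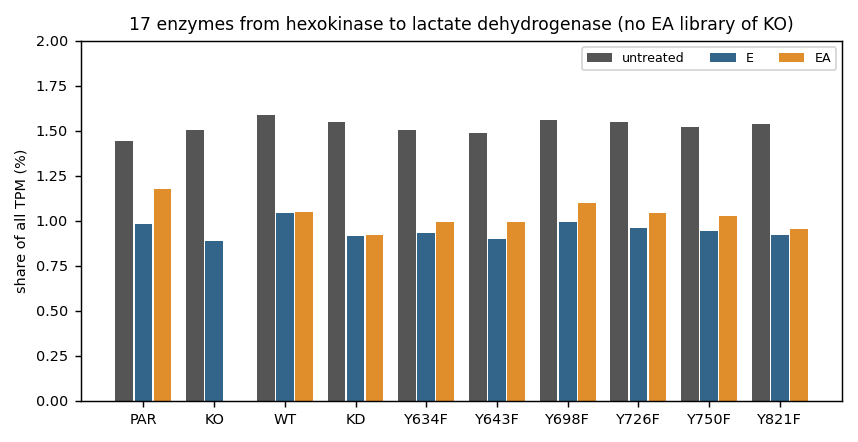
Share of all TPM taken by the 17 enzyme genes from hexokinase to lactate dehydrogenase, in percent, as 1 bar per library for the 10 lines. Every untreated bar is at 1.44% or more, every E bar at 1.05% or less, and each line's EA bar lies above its E bar and below its untreated bar, with the largest step from E to EA in PAR.

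Neighbouring pathways, listed by name, are given as counts of genes that passed with E, beside the 42.6% of all genes tested that fell and the 36.4% that rose. Several of these counts are near that background, among them those of the glycogen, hexosamine and hypoxia lists. In the pentose phosphate pathway, which makes NADPH and ribose from glucose 6-phosphate, 5 of 7 genes rose and 2 fell. Among those that rose were TKT, transketolase (718 ± 35.4 TPM untreated and 1113 ± 71.4 TPM with E, SD over 10 lines, a rise of 0.63 on the log2 scale), and TALDO1, transaldolase (rise of 0.46). The 2 that fell, RPIA and RPE, interconvert pentose phosphates. In the citrate cycle 14 of 16 genes fell and none rose, led by IDH3A, a subunit of isocitrate dehydrogenase, which fell by 1.05, and by citrate synthase CS, which fell by 0.69. Of the rest of pyruvate dehydrogenase, the core components DLAT, DLD and PDHX fell and the activating phosphatases PDP1 and PDP2 and the phosphatase regulator PDPR rose.

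Among 7 glycogen genes tested of 8 listed, 1 rose (the branching enzyme GBE1) and 3 fell. All 3 gluconeogenesis genes tested of 4 listed fell, as did 3 of 5 hexosamine genes, with none rising. Of 13 hypoxia targets tested of 14 listed, 7 rose and 5 fell. VEGFA, the angiogenic growth factor, fell by 1.48, and ADM, a vasodilator peptide, and EGLN3, an oxygen-sensing hydroxylase, rose by 1.03 and 1.41, so these targets did not follow a common direction. Of the glucose-sensing factors, MLXIP rose by 0.52 and MLX fell by 0.20, and MLXIPL was not tested. Of 25 other isozymes and transporters 6 were tested, of which 1 rose (SLC2A10) and 3 fell, among them HKDC1, a hexokinase family member, from 117 ± 12.3 to 74.3 ± 9.79 TPM (SD, 10 lines).

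The second comparison asked how 24 h of erlotinib with AF154 differed from 24 h of erlotinib alone, in 8 lines. KD was left aside as kinase-dead and KO as without an EA library. LDHA and ENO1 rose and none of the 30 genes tested passed as lower, and the steps were small beside those of E. Of the 30 genes tested 2 passed, both higher, where 1.88% of all genes tested rose and 0.473% fell (171 and 43 of 9085 genes, limma). With library medians centred the split over all genes was 133 higher and 72 lower. The median difference was 0.04 on the log2 scale over the 30 genes and 0.02 over all genes. An unadjusted limma p under 0.05 was found for 14 of the 30 genes and for 1895 of all 9085 genes. ENO1, LDHA and HIF1A were higher in 8 of 8 lines, which held for 3.96% of all genes, and none was lower in 8 of 8.

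LDHA was at 503, 579 and 620 TPM in the lowest, median and highest of the 9 EA libraries, the lowest being KD. In the 10 E libraries it was at 446, 488 and 544 TPM, the lowest being KO. In the 8 lines it rose by 0.20 ± 0.03 (SE) on the log2 scale (limma adjusted p = 0.011), between 0.12 in WT and 0.28 in Y634F. The difference in KD, without a replicate check, was 0.11, just under the lowest of the 8. ENO1, over the same libraries, was at 471, 618 and 1138 TPM with EA against 469, 518 and 825 TPM with E, KD being lowest in both. It rose by 0.23 ± 0.04 (limma adjusted p = 0.024), between 0.07 in WT and 0.46 in PAR, while KD moved by 0.0043. Both calls were lost without Y634F, where limma gave adjusted p = 0.055 for LDHA and 0.067 for ENO1, and without the line block, where it was 0.071 and 0.57. ENO1 also missed the threshold without Y643F, Y698F or Y750F.

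The other enzymes did not pass and did not share a direction. ENO2 was higher with EA in 2 of 8 lines, PFKM in 1, and PFKP and PFKL in 4. GPI, GAPDH, PGK1, PGAM1, TPI1, PKM and LDHB were each higher in 7 of 8 lines. Their differences were between 0.08 and 0.16 on the log2 scale, with limma adjusted p between 0.067 and 0.31. How many of all genes were higher in 7 of 8 lines was not counted, so this is a description only. The line not higher was WT for GPI, GAPDH, PGK1 and PKM, Y821F for PGAM1 and LDHB, and Y750F for TPI1. KD, outside the 8, moved by 0.14 for GPI, by -0.17 for PGK1 and by -0.06 to 0.02 for the rest. HIF1A had a difference of 0.18 (limma adjusted p = 0.055). HK2 was at 1.44, 2.58 and 3.10 TPM in the 9 EA libraries, the lowest being KD. It stayed near its E level, with a difference of 0.17 (95% interval -0.04 to 0.37) with the lower filter. The 8 lines ran from -0.11 in Y750F to 0.43 in PAR, and KD was at -0.45. TXNIP was at 147, 179 and 211 TPM with EA, and its difference of -0.14 had a limma adjusted p of 0.17. None of the 7 low genes tested with the lower filter passed, where 0.475% of 14111 genes did. PAR had the highest of the 8 differences in 15 of the 30 genes, and in 21.2% of all genes. The share of TPM in the 17 enzyme genes was higher with EA in 8 of 8 lines, by 0.0047 percentage points in WT and 0.195 in PAR, and by 0.0051 in KD. In neighbouring lists 1 gene passed, IDH3A, of 16 citrate cycle genes tested, and it was higher, where 1.88% of all genes tested rose. No other list held a call, and 1 call is no result about the citrate cycle.

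**Figure D4:**
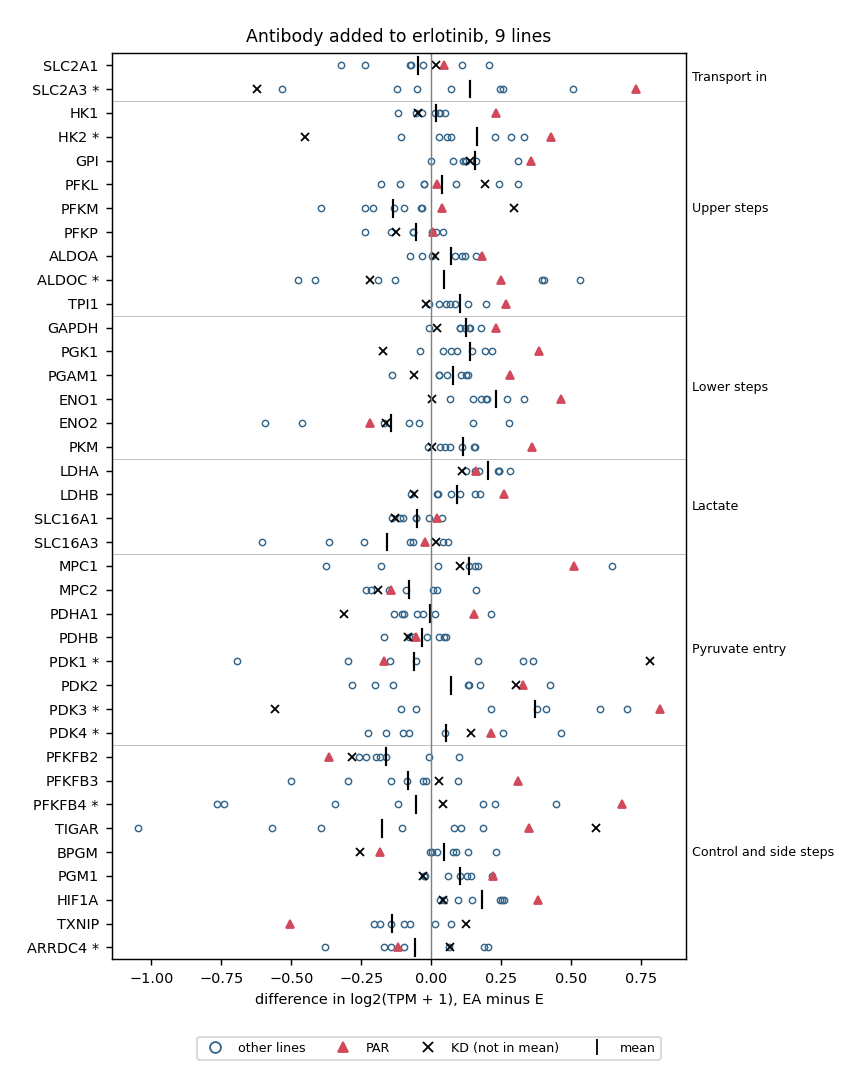
Difference in log2(TPM + 1) between EA and E for the 38 genes, 1 point per line (8 lines in the mean, PAR as a triangle, KD as a cross outside the mean), grouped by role, with a star on the 8 genes below the filter. LDHA, ENO1 and HIF1A lie right of 0 in every line, and GPI, GAPDH, PGK1 and PKM lie mostly right of 0 with PAR at the far right.

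Set against untreated cells, the EA libraries of the same 8 lines remained far from the starting level. This comparison shares its libraries with both others, so the values stand beside them and are not further evidence. Of the 30 genes 20 fell and 3 rose, where 37.6% of all genes tested fell and 33.1% rose (limma). With quantile normalization it was 20 and 6. ENO2, ENO1, LDHA, LDHB, GPI and PGAM1 had the largest falls among those of the 30 that were lower in all 8 lines, by 1.51, 1.08, 0.94, 0.83, 0.82 and 0.70 on the log2 scale. TXNIP, BPGM and PDK2 rose by 1.60, 0.80 and 0.71. The levels that follow are over all 10 untreated, 10 E and 9 EA libraries, so KO and KD are among them. PGAM1 was at 304, 320 and 333 TPM in the lowest, median and highest untreated library. It was at 171, 182 and 216 TPM with E and at 163, 197 and 231 TPM with EA. PDK2 was at 27.3, 37.0 and 45.3 TPM with EA, its highest value in Y821F. BPGM was at 16.0, 19.6 and 25.3 TPM, and ENO2 at 4.66, 7.86 and 10.7 TPM. With the lower filter HK2, PDK1, PDK3 and PFKFB4 fell and ARRDC4 rose, where 31.6% of 14111 genes fell and 31.1% rose.

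Between lines, the parental cells, which were neither edited nor transduced, lay outside the range of the others for 10 of the genes. Because PAR is 1 line, this is a description with no test. Of the 30 genes, 6 were above and 4 below every other line in all 3 treatments, where 8.71% of all genes tested were above and 11.8% below. The count below is near the share of all genes and is no trait of these genes. The 6 above were ENO1, HK1, PFKP, SLC2A1, ALDOA and PFKL, and the 4 below were TIGAR, PDHB, MPC2 and ENO2. ENO1 had the widest gap. It was at 1871 TPM in untreated PAR against 1278 to 1378 TPM in the 9 others, at 825 against 469 to 609 TPM with E, and at 1138 against 471 to 731 TPM in the 8 others with EA. ENO2, its isozyme, was lowest in PAR, so the ENO1 to ENO2 ratio was highest there in all 3 treatments, at 100, 148 and 244.

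HK1 was at 112, 73.7 and 86.7 TPM in PAR (untreated, E and EA) against at most 84.2, 59.6 and 60.0 TPM elsewhere. PFKP was at 269, 257 and 258 TPM in PAR against at most 216, 221 and 211 TPM. ALDOA was at 1840, 1525 and 1729 TPM against at most 1757, 1459 and 1427 TPM. SLC2A1, at 343, 429 and 443 TPM, exceeded the next line by little untreated (342 TPM) and by more with E and EA (401 and 357 TPM). TIGAR was at 10.7, 8.49 and 11.1 TPM in PAR against at least 12.8, 11.1 and 11.5 TPM. PAR with E also had the highest mitochondrial share of the E libraries, 17.4% against at most 14.2%. The counts for PAR, above and below, also depended on the scaling, as did those over all genes, which were 791 and 1071 of 9085 in the main setting. With mitochondrial genes left out they were 6 and 4, beside 973 and 879 of 9072 genes. With quantile normalization they were 6 and 3, beside 983 and 903 of 9085. With library medians centred they were 5 and 3, beside 921 and 909 of 9085.

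**Figure D5:**
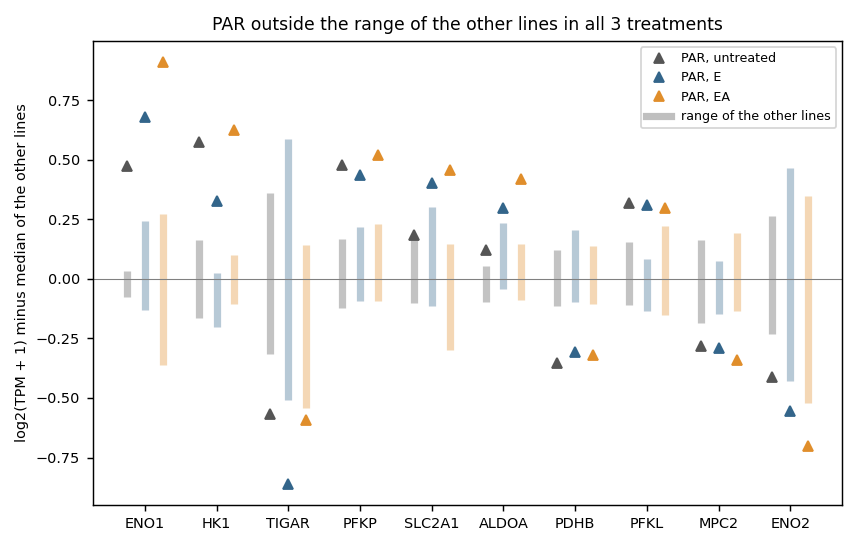
Level of PAR (triangles) against the range of the other lines (bars), both as log2(TPM + 1) minus the median of the other lines, untreated (grey), with E (blue) and with EA (orange), for the 10 genes in which PAR lay outside that range in all 3 treatments. The widest gap is that of ENO1 with EA, where PAR was at 1138 TPM and the next line at 731 TPM.

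Few of the genes set KO apart from the 8 transduced lines. Of the 30, PDHB was above and PDHA1 and PGAM1 were below all 8 lines both untreated and with E, where 2.61% of all genes were above and 4.2% below. PDHA1 was at 144 TPM in untreated KO against 150 to 185 TPM, and at 103 TPM with E against 112 to 132 TPM. For PGAM1 and PDHB the gap was at most 0.03 on the log2 scale. KO had the lowest E value of LDHA (446 TPM) and of HK2 (1.67 TPM), but neither gene was below all 8 lines in untreated KO.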

How the data were processed

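Poly(A) RNA of 29 libraries was analysed. The authors deposited TPM per transcript. Per the labels, the processing notes name kallisto and GRCh38, with no versions, and strand handling is not given in the sources used here, so antisense overlap cannot be separated. By unversioned identifier, 169797 of 188753 transcripts were found in GENCODE 29. They were summed to 35579 genes, which held 97.0 to 97.4% of a library's TPM. The 9085 genes whose mean reached 10 TPM were tested as log2(TPM + 1), a scale that understates changes of low genes, with limma 3.58.1 in R 4.3.3 (lmFit, eBayes with trend), line as a block, Benjamini-Hochberg adjustment over all genes and a threshold of 0.05. The block rests on dishes of a line being the same cells. The 38 genes, the neighbouring lists, the motifs and the rule for genes given in full (the 6 largest rises and falls that passed in every line, every gene that passed between EA and E, LDHA, and up to 6 genes of PAR by largest gap) were chosen with earlier results of these data known. HK2, PDK1, PDK4 and PAR's other genes were named after their values were seen. Alternatives were other pseudocounts and filters, median centring, quantile normalization, mitochondrial genes left out, no block, 1 fit of all libraries, KD included, and each line left out. Python 3.11.15, numpy 2.4.6, pandas 2.3.3 and matplotlib 3.10.9 were used, and the fit was tested on simulated data.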

Additional observations from a re-analysis of the deposited data

Results flagged for a closer look

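A sample was marked where its gap to the nearest other value, divided by the range of its group, passed Dixon's 95% critical value. Of 114 groups (38 genes in 3 treatments) 26 were marked, 20 of them for PAR. Chance would mark about 5% of independent groups, but these groups share the same 29 libraries and are not independent. The rule was applied to these 38 genes only, so no share over all genes stands beside the count. It is no trait of these genes.

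Untreated PAR was marked as high for HK1 (112 TPM, next line 84.2), PFKP (269, next 216) and ENO1 (1871, next 1378) and as low for TPI1 (931, next 1108), GAPDH (4501, next 5341) and LDHB (928, next 1183). With E, PAR was marked as high for HK1 (73.7 TPM), PFKL (48.2) and ENO1 (825) and as low for LDHB (500.0), SLC16A3 (142) and PDK4 (0.511). With EA, PAR was marked as high for HK1 (86.7 TPM), GPI (226), PFKP (258), PFKFB3 (31.6), ALDOA (1729), ENO1 (1138) and PGM1 (61.6) and as low for SLC16A1 (36.5).

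In other lines, the marked values were PDK2 in untreated Y726F (26.5 TPM) and in KO with E (38.1 TPM), PGM1 in untreated Y821F (83.3 TPM), PFKFB4 in Y698F with E (9.32 TPM), PGAM1 in WT with E (216 TPM) and PDK1 in Y821F with EA (8.18 TPM), each the highest of its group.

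PFKM was lower with EA than untreated in all 8 lines, the nearest to 0 by 0.10 on the log2 scale, and was higher by 0.0122 in KD, a difference between lines that was not tested.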

How the results depend on the processing

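Of the 26 genes called between E and untreated, 23 kept their direction and call under every alternative in which they were tested, 19 for most and 18 for ENO2, MPC1 and PFKFB2, which were below 10 TPM in some library. PDHB, PFKM and SLC16A1 kept direction and lost the call in some, and SLC2A1 gained it in 4. PFKP passed as higher with quantile normalization. The 23 called between EA and untreated kept theirs, under 18 alternatives for 21 genes and 17 for ENO2 and MPC1. Leaving out each line gave 24 to 25 called genes for E against untreated, 23 to 24 for EA against untreated and 0 to 2 for EA against E, with 0 without Y634F and 1 without Y643F, Y698F or Y750F. The 2 calls of EA against E became 0 without the line block, which changed the number of calls little elsewhere (25 and 23), 1 with no filter on low values and 5 with mitochondrial genes left out, where GAPDH, GPI and HIF1A joined. Over all genes the 214 calls became 67 with a mean of at least 1 TPM, 6 with no filter, 9 without the block, 120 with KD and 10 to 188 with a line left out. No paired analysis by replicate number was possible because the labels share none, and the line block served instead.

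Directions turned only for genes that were not called in the main fit. Between E and untreated these were PFKFB3 (0.0376 with medians centred, 0.0237 with quantile normalization, 0.0012 without mitochondrial genes, -0.0671 to 0.0470 with a line left out), PFKP (0.0369, 0.0685 and 0.00075, and -0.0334 to 0.0067) and TIGAR (0.0121 with medians centred, -0.121 to 0.0578 with a line left out). Between EA and E they were BPGM (-0.0122 in 1 fit of all libraries), HK1 (-0.0120 to 0.0382 with a line left out) and PDHA1 (9.4e-05 with quantile normalization, 0.0083 without mitochondrial genes, -0.0357 to 0.0139 with a line left out), and between EA and untreated PFKP (0.0441 with quantile normalization) and TIGAR (0.0018 with medians centred, -0.0934 to 0.0219 with a line left out). Of these, only PFKP passed after turning, as higher with E than untreated under quantile normalization (limma adjusted p = 0.0492). The cause of the turns was not tested.

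With a pseudocount of 1 the median HK2 to HK1 ratio became 0.0559 with E and 0.0631 with EA, and that of ALDOA to ALDOC 305 untreated. Leaving out mitochondrial genes raises every share by construction: all 38 genes took 1.97, 1.27 and 1.38% (untreated, E and EA medians) in place of 1.66, 1.06 and 1.14%, and the 17 enzymes 1.82, 1.12 and 1.24%. With medians centred, 1 gene of KO lay outside the range in place of 3. Depth is unknown, so the counting error of a value near 0, as of PDK4, is unknown too.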
